A study of Mus musculus with 3 samples.

Results

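Setd1a CUT & RUN peaks were examined at genes for chromatin remodelers and histone modifiers in cultured WT quiescent adult NSCs. The members were all protein-coding genes on the 19 mouse autosomes in the GENCODE M21 annotation of mm10 whose symbol starts with Smarca to Smarce, Ino80, Brpf or a numbered Chd, Arid, Hdac, Sirt, Kat, Brd or Kdm name of the Kdm2, Kdm3, Kdm4, Kdm6, Kdm7 and Kdm8 families. This rule gave 82 of 20807 protein-coding autosomal genes and used no measured value, but it was chosen with earlier results of these data known. It leaves out X-linked relatives such as Smarca1, Hdac6 and Hdac8, and it does not take the H3K4 demethylases of the Kdm1 and Kdm5 families. A role was assigned to 81 members. The remaining one, Brd3os, is annotated as protein-coding beside Brd3 and is counted in the total only.

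The cells were derived from the dentate gyrus of mice aged 7 to 8 weeks with the genotype Hopx-CreERT2::Setd1afl/fl::H2B-GFP, so that the floxed Setd1a allele and both transgenes were shared by all samples, and the labels give the genotype of the libraries as WT. Quiescence was induced with BMP4 and FGF2, each at 20 ng/ml, in the absence of EGF, and cells were taken on day 5. There were 2 libraries made with an antibody against Setd1a, from independent cultures, and 1 library made with rabbit IgG. In CUT & RUN an antibody directs a nuclease to cut the DNA next to the bound protein, and the IgG library stands for cutting without a specific target. The data are 1 combined list of 6969 Setd1a peaks, which holds no height, no column per library and nothing of the IgG library. Depth per library is unknown, and a gene without a listed peak is therefore a gene at which no peak was listed, not one shown to lack Setd1a. Of 8 NSC markers, Gfap, Id4, Nes, Sox2 and Vim had a peak within 1000 bp of a transcription start site (TSS) and Fabp7, Hopx and Slc1a3 did not. Markers of neurons (0 of 3 on autosomes), microglia (0 of 3) and endothelium (0 of 2) had none, and of 4 oligodendrocyte lineage markers Olig2 had one, but a peak list is not a measure of expression. In total, 6 of the 20 autosomal markers (30%) had such a peak, against 22.5% of all protein-coding autosomal genes. No contrast between these small marker groups was tested.

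Setd1a is the catalytic subunit of a complex that methylates histone H3 at lysine 4, a mark of active promoters. Remodelers use ATP to slide, evict or exchange nucleosomes, acetyltransferases and deacetylases add and remove acetyl groups on histone tails, bromodomains bind acetylated lysine, and JmjC demethylases remove methyl groups from histone lysines. Several of these factors, among them the BAF complexes and Chd7, are known to act in the maintenance and differentiation of neural stem cells.

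Stretches of 4 member peaks are shown as read from the mm10 sequence, 5′ to 3′ on the strand of the gene. They are the widest promoter peak of the members (Arid1a), the narrowest one that lies wholly outside annotated exons (Hdac5, shown whole), a member with many motif matches in its stretch (Kdm4b), and the peak with the lowest CpG content (Chd3), which was chosen after its values were seen. Capitals mark letter-for-letter matches, on either strand, to 8 short motifs named for the factors or promoter elements they are known for. The letters searched for ETS factors were CCGGAAG. For NRF1 the search used GCGCATGC and for YY1 it used AAGATGGCG. SP and KLF factors were represented by the letters GGGCGG, and the factor NFY by the letters CCAAT. The letters of the cyclic AMP response element were TGACGTCA. For the E-box the search used CACGTG, and for the TATA element the longer form TATAAA. Matches may overlap each other, and a match is a description of the letters only. The Kdm4b stretch includes 30 bases of annotated exon, and the other stretches none. The Arid1a stretch is chr4:133756777-133757076 (minus strand), that of Hdac5 chr11:102230212-102230477 (minus strand), that of Kdm4b chr17:56325792-56326091 (plus strand) and that of Chd3 chr11:69365070-69365369 (minus strand).
Arid1a: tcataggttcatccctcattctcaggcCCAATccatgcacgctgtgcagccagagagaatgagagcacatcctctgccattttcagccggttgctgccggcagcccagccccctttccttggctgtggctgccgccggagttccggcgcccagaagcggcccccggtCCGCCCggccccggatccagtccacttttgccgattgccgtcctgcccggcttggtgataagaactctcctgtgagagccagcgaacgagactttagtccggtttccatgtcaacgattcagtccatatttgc
Hdac5: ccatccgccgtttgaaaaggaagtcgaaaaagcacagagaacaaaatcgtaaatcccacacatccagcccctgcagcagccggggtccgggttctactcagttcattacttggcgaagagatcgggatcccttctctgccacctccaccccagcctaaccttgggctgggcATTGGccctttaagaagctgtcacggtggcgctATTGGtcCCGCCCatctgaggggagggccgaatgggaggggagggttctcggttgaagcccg
Kdm4b: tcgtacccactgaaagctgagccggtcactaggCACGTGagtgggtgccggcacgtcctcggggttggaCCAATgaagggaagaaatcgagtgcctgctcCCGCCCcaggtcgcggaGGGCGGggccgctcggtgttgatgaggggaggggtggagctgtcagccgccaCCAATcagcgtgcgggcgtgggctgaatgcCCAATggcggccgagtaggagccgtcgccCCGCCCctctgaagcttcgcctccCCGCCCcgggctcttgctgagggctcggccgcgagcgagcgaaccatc
Chd3: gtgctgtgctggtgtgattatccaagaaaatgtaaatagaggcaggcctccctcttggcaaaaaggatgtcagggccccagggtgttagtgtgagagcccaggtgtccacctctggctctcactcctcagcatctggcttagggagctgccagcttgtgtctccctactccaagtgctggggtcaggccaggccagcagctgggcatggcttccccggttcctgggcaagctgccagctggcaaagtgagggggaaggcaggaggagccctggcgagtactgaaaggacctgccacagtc
The Kdm4b stretch held 8 motif matches, made up of 4 to SP and KLF, 3 to NFY and 1 to the E-box. It held 30 CG dinucleotides in 300 bases. The Hdac5 stretch held 14 CG dinucleotides in 266 bases, and the Arid1a stretch 19 in 300 bases. The Chd3 stretch held 2 CG dinucleotides and no match to any of the 8 motifs.

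Of the 82 members, 38 (46.3%, 95% Wilson interval 36.0% to 57.1%) had a promoter peak, that is a peak within 1000 bp of the TSS of any transcript of the gene. Over all protein-coding autosomal genes the share was 22.5%. A peak lay over a TSS itself in 30 members (36.6%), against 17.2% of all genes. These intervals cover counting error over genes only. The list holds no spread between replicates, and no test over samples could be made, so the shares are given as descriptions beside the background.

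**Figure D1:**
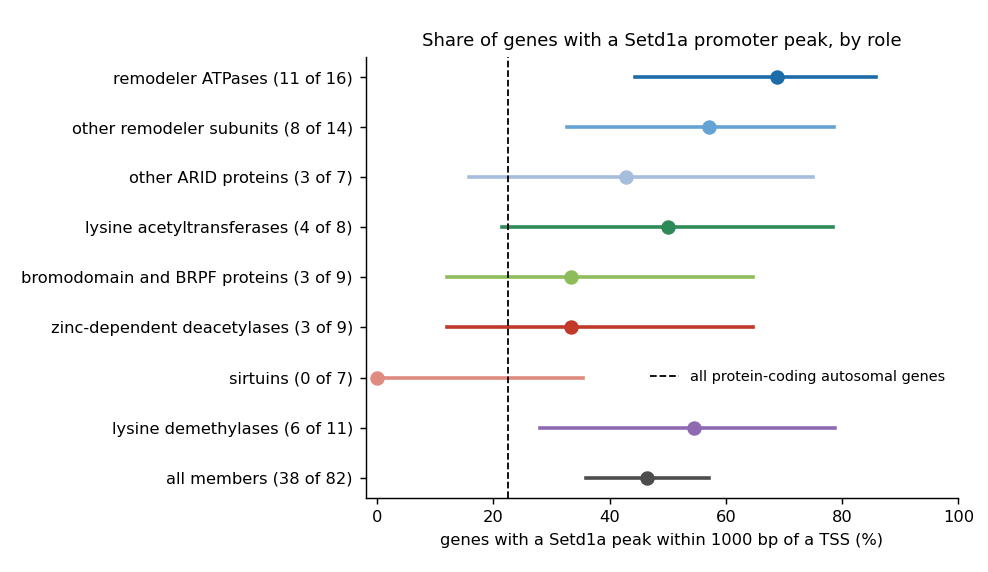
Share of genes with a Setd1a peak within 1000 bp of a TSS, in percent, for each role and for all members. Points are shares, horizontal lines are 95% Wilson intervals over genes, and the dashed line is the 22.5% of all protein-coding autosomal genes. Remodeler ATPases lie highest with 11 of 16 genes and sirtuins lowest with 0 of 7. The intervals of these 2 roles do not overlap, those of all other pairs of roles do, and no difference was tested. The order of the roles holds for the TSSs used here and changed with other TSS sets.

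Remodeler ATPases, the motor subunits, had the highest share of the 8 roles, with 11 of 16 genes (68.8%, interval 44.4% to 85.8%). This rank depended on the TSS set. Chd2, Chd3 and Chd9 lost their promoter peak with basic transcripts or the most upstream TSS only, and Chd2 and Chd3 with RefSeq TSSs. Under each of these alternatives the ATPases no longer had the highest share. Both alternative motors of the BAF complexes, Smarca4 (BRG1) and Smarca2 (BRM), carried a peak. That of Smarca4, at chr9:21615598-21616501, was the widest of this group at 904 bp and covered the TSS, whereas that of Smarca2 spanned 306 bp, at chr19:26604616-26604921, and ended 129 bp upstream of the nearest of the 42 TSSs annotated for the gene. Smarca5, the ISWI motor SNF2H, had a peak of 334 bp, at chr8:80738197-80738530, that began 895 bp downstream of a TSS and lay wholly in an intron, which made it the member closest to the 1000 bp limit from inside. Ino80, the motor of the INO80 complex, had a peak of 777 bp over its TSS.

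Of the 9 numbered Chd genes that share the chromodomain helicase name, Chd1, Chd2, Chd3, Chd6, Chd7, Chd8 and Chd9 had a promoter peak, and Chd4 and Chd5 did not. Chd1, whose chromodomains bind methylated H3K4, had a peak of 622 bp that lay almost wholly upstream of the TSS and reached 12 bp past it. The peak of Chd7, the gene mutated in CHARGE syndrome, was the narrowest of the ATPases at 288 bp, at chr4:8690448-8690735. Its CpG observed to expected ratio, the number of CG dinucleotides divided by the number that its C and G content would give, was 1.23, the highest of the 42 promoter peaks. The autism-associated Chd8 had 636 bp over the TSS. Chd3, Chd4 and Chd5 are the alternative motors of the NuRD complex. Among them only Chd3 had a promoter peak, an intronic interval of 316 bp at chr11:69365062-69365377, most of it printed above, which ended 283 bp upstream of a later TSS and had the lowest CpG ratio of the 42 promoter peaks (0.141). The nearest peak lay 25263 bp from a TSS of Chd4 and 12495 bp from one of Chd5.

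No promoter peak was listed for Chd1l, which acts in DNA repair after activation by poly-ADP-ribose, for Smarcal1, which reanneals DNA at stalled replication forks, or for Smarcad1, a remodeler of heterochromatin and DNA repair. Smarcad1 was also the member farthest from any peak, at 1427939 bp, and the nearest peaks of Chd1l and Smarcal1 lay 47680 and 23928 bp away. At the most CpG-rich TSS the ratio was 1.13 for Smarcad1 and 0.972 for Chd1l, above the median of 0.710 of all genes, and 0.611 for Smarcal1, below it.

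Among the other subunits of remodelers, 8 of 14 genes had a promoter peak (57.1%, interval 32.6% to 78.6%). For the Arid1, Smarcc and Smarcd genes, paralogs that occupy the same place in BAF complexes differed in this list. The alternative motors Smarca4 and Smarca2 did not, since both had a promoter peak. Arid1a, a DNA-binding subunit of canonical BAF, had the widest promoter peak of all members, 1318 bp at chr4:133756268-133757585, whereas the nearest peak of Arid1b lay 85964 bp away. Smarcc1 (BAF155) had a promoter peak and Smarcc2 (BAF170) did not, with its nearest peak at 18735 bp. Smarcd2 had a peak of 884 bp over the TSS, and Smarcd1 and Smarcd3, the other BAF60 genes, had nearest peaks at 15687 and 2772 bp. Smarcb1, the single-copy core subunit SNF5, had 957 bp over the TSS, and Smarce1 (BAF57), also a single-copy gene, had its nearest peak 261329 bp away. The peak of Arid2, which marks the PBAF form of the complex, was the narrowest of these subunits at 288 bp, at chr15:96286507-96286794, and ended 724 bp upstream of the TSS.

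Of the accessory genes of the INO80 complex, Ino80c (902 bp), Ino80d (588 bp) and Ino80e (388 bp, chr7:126861962-126862349), had a promoter peak, and Ino80b, with its nearest peak at 12289 bp, did not. Counted by complex, with Brd7 and Brd9 included, 7 of 14 member genes of BAF and PBAF, 4 of 5 of INO80 and 2 of 5 of NuRD had a promoter peak.

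Of the other ARID genes, which encode DNA-binding proteins outside the BAF complexes, 3 of 7 had a promoter peak (42.9%, interval 15.8% to 75.0%). Arid4a and Arid4b encode related subunits of Sin3 deacetylase complexes, and each had 2 promoter peaks. Those of Arid4a lay at different starts: 674 bp at chr12:71015864-71016537 over the first TSS, and 275 bp at chr12:71048190-71048464 over a later TSS, 32200 bp from the first. Those of Arid4b lay side by side, 427 bp at chr13:14062961-14063387 over the first TSS and 242 bp at chr13:14063821-14064062, the narrowest promoter peak of all members, which lay wholly in annotated untranslated exon. The peak of Arid3a (302 bp, chr10:79930965-79931266) lay 541 bp downstream of a later TSS and wholly in coding exon. Arid3b, Arid3c, Arid5a and Arid5b had no promoter peak, with nearest peaks between 7238 bp (Arid3c) and 230405 bp (Arid3b) away.

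**Figure D2:**
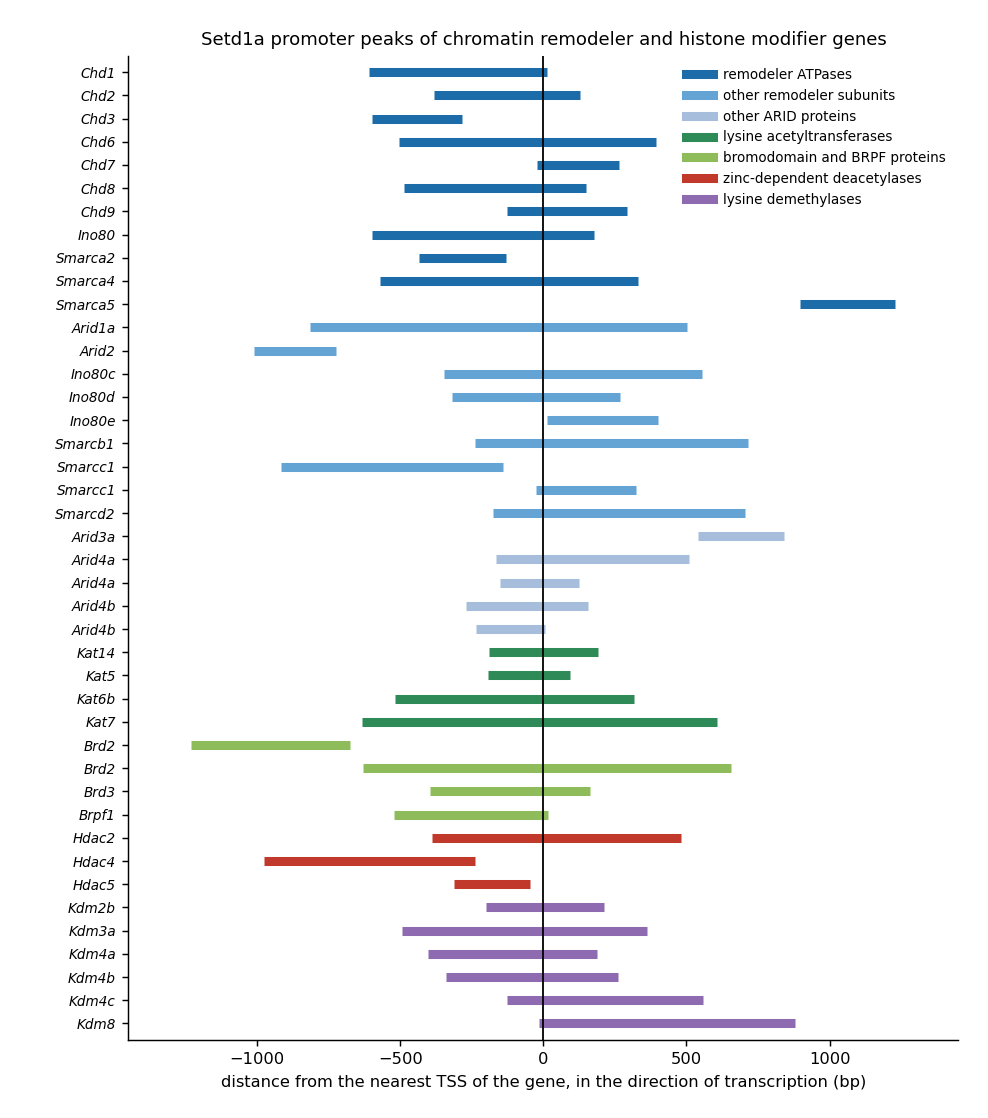
Extent of each of the 42 promoter peaks of the members relative to the nearest TSS of the gene, in bp in the direction of transcription, coloured by role. The vertical line is the TSS, and a gene with 2 rows has 2 promoter peaks. Most bars cross the line, and those of Arid2, Arid3a, Chd3, Hdac4, Hdac5, Ino80e, Smarca2 and Smarca5 do not, nor does 1 of the bars of Brd2 and of Smarcc1.

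Lysine acetyltransferases had a promoter peak in 4 of 8 genes (50%, interval 21.5% to 78.5%), and all 4 peaks covered a TSS. Kat7 (HBO1), which acetylates H3K14 with BRPF and JADE partners, had the widest of these at 1241 bp, chr11:95309602-95310842. Kat5 (TIP60) had the narrowest at 287 bp, chr19:5609826-5610112, and 178 bp of it lay in coding exon. Kat6a (MOZ) and Kat6b (MORF) encode alternative catalytic subunits of one complex. Kat6b had a peak of 833 bp over a later TSS, 18902 bp from the first one annotated, and Kat6a had its nearest peak 53492 bp from a TSS. Kat14, the catalytic subunit of the ATAC complex beside Kat2a or Kat2b, had 384 bp at chr2:144368797-144369180 over its TSS, whereas Kat2a and Kat2b, the GCN5 and PCAF enzymes, had nearest peaks at 88873 and 30100 bp. That of Kat8 (MOF) lay 15762 bp away.

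Of the acetyl-lysine readers and BRPF scaffolds, 3 of 9 had a promoter peak (33.3%, interval 12.1% to 64.6%). Brd2 and Brd3, of the BET family, each had one. Brd2 had 2 promoter peaks, 1289 bp at chr17:34121332-34122620 over 5 of its TSSs and 559 bp at chr17:34119164-34119722. The peak of Brd3 lay over later TSSs, 31581 bp from the first one. Brpf1, the scaffold of the Kat6a and Kat6b complex, had the narrowest of these at 537 bp, chr6:113306616-113307152, whereas Brpf3 and Brd1, the other BRPF-type scaffolds, had nearest peaks at 124065 and 116013 bp. Brd7 and Brd9, which mark the PBAF and non-canonical BAF forms, had nearest peaks at 14897 and 398961 bp, and that of Brd8, a subunit of the TIP60 complex, lay 184391 bp away.

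Zinc-dependent deacetylases had a promoter peak in 3 of 9 genes (33.3%, interval 12.1% to 64.6%), and a peak over a TSS in 1 of 9. That gene was Hdac2, a class I enzyme of the NuRD, Sin3 and CoREST complexes, with 869 bp at chr10:36974182-36975050. Its close paralog Hdac1 had its nearest peak 55309 bp from a TSS, and that of Hdac3, the enzyme of the NCoR complex, lay 8251 bp away. Of the class IIa genes, which encode signal-regulated repressors, Hdac5 had the 266-bp interval printed above, which ended 46 bp upstream of a TSS. Hdac4 had an intronic peak of 738 bp, at chr1:92180580-92181317, that ended 239 bp upstream of a later TSS. With TSSs of the RefSeq annotation, an alternative added after the data were seen, this peak covered a TSS of Hdac4. Hdac7 and Hdac9, of the same class, had nearest peaks at 119601 and 131163 bp, and Hdac10 and Hdac11 at 2266 and 301511 bp.

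No sirtuin had a promoter peak. For 0 of 7 genes the interval reached 35.4%, which includes the 22.5% of all genes. The nearest peak lay 4994 bp away for Sirt4, 6870 bp for Sirt7, 16673 bp for Sirt2, 21187 bp for Sirt6, 47603 bp for Sirt1, 60869 bp for Sirt5 and 144022 bp for Sirt3. These NAD-dependent enzymes include nuclear (Sirt1, Sirt6 and Sirt7) and mitochondrial (Sirt3, Sirt4 and Sirt5) proteins. The result for Sirt4 turned on the annotation. With TSSs of the RefSeq annotation of GRCm38.p6, an alternative added after the data were seen, the 715-bp peak at chr5:115489719-115490433 covered a TSS of Sirt4. The same peak lay within 1000 bp of the snRNA genes Gm24265 and Gm24407.

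Of the JmjC demethylases and their relatives, 6 of 11 had a promoter peak (54.5%, interval 28.0% to 78.7%), and all 6 peaks covered a TSS. Kdm4a, Kdm4b and Kdm4c, which remove methyl groups from H3K9 and H3K36, had peaks of 593, 601 and 686 bp, whereas the nearest peak of Kdm4d lay 110838 bp away. Kdm3a, an H3K9 demethylase, had 856 bp over the TSS. Its paralog Kdm3b had no promoter peak, but a 381-bp peak in coding exon inside the gene, 4185 bp from the nearest of its TSSs. Kdm2b, whose CXXC domain binds unmethylated CpG, had 414 bp at chr5:122988880-122989293, the narrowest of this group, and Kdm2a, with the same domain, had its nearest peak at 99231 bp. Kdm8 (JMJD5) had the widest, 897 bp at chr7:125444668-125445564, which ran from 16 bp before to 880 bp past the TSS. Kdm7a had its nearest peak 112662 bp away.

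Kdm6b (JMJD3), which removes methyl groups from H3K27, was the member closest to the 1000 bp limit from outside. It had 3 peaks inside the gene, chr11:69411517-69412058, chr11:69409973-69410331 and chr11:69408773-69409212, which lay 1617, 3344 and 4463 bp from the nearest annotated TSS, and with GENCODE M21 no promoter peak. A further peak of 1815 bp, chr11:69416981-69418795, wider than any promoter peak counted for the members, lay 3306 bp before the first GENCODE TSS, and no GENCODE TSS of any gene lay within 1000 bp of it. A RefSeq TSS of Kdm6b lies inside that peak. With RefSeq TSSs, 37 members had a promoter peak: Kdm6b and Sirt4 were gained and Arid3a, Chd2 and Chd3 were lost. The share of all genes was then 22.8%. RefSeq TSSs were matched by symbol to all 82 members and to 19560 of the 20807 protein-coding autosomal genes.

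**Figure D3:**
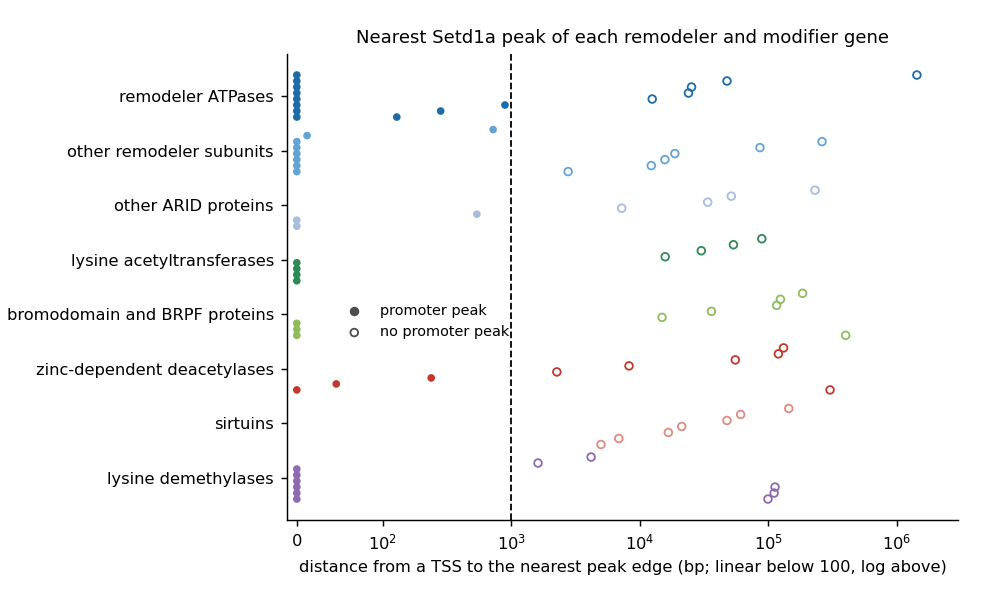
Distance in bp from a TSS to the edge of the nearest Setd1a peak for each of the 81 members with a role, on an axis that is linear below 100 bp and logarithmic above. Filled points are genes with a promoter peak, open points are genes without, and the dashed line is the 1000 bp limit. Of the 43 open points, 3 fall between 1000 and 3000 bp and 35 lie over 10000 bp away.

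Of the 44 members without a promoter peak, 36 (81.8%, interval 68.0% to 90.5%) had their nearest peak over 10000 bp away, against 91.0% of all genes without a promoter peak. The median distance was 41850.5 bp for these members and 89545 bp for all such genes. Between 1000 and 3000 bp lay Kdm6b (1617 bp), Hdac10 (2266 bp) and Smarcd3 (2772 bp). On the inner side the members nearest the limit were Smarca5 (895 bp), Arid2 (724 bp) and Arid3a (541 bp).

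Within the group with a promoter peak, the peak nearest a TSS covered the TSS in 30 genes, lay upstream in 5 (Arid2, Chd3, Hdac4, Hdac5 and Smarca2) and lay downstream in 3 (Arid3a, Ino80e and Smarca5). The midpoint of that peak lay at a median of -45.5 bp from the TSS, with upstream counted as negative, and ranged from -868 bp (Arid2) to 1062 bp (Smarca5). The 38 members had 42 promoter peaks of 242 to 1318 bp, and Arid4a, Arid4b, Brd2 and Smarcc1 had 2 each. Counting the widest peak of each gene, the median was 611.5 bp for the members and 555 bp for all genes with a promoter peak, and the interval of the members' median, 427 to 777 bp, included the latter value. In all, 3 peaks were at least 1000 bp wide: those of Arid1a (1318 bp), Brd2 (1289 bp) and Kat7 (1241 bp). Of the 25991 bp that the 42 peaks covered, 33.7% lay outside the gene, 32.5% in introns, 27.5% in untranslated exons, 5.13% in coding exons and 1.15% in exons of noncoding transcripts.

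In 8 members, Arid3a, Brd3, Chd2, Chd3, Chd9, Hdac4, Kat6b and Kdm4c, the promoter peak lay at a later TSS and none lay within 1000 bp of the first. These were 21.1% of the 38 members with a promoter peak (interval 11.1% to 36.3%), against 8.67% of all genes with one. By number of annotated TSSs, they were 1 of 8 with 2 to 4 TSSs (12.5%, against 5.74%), 2 of 14 with 5 to 9 (14.3%, against 10.1%) and 5 of 16 with 10 or more (31.2%, against 15.5%), and in each of these classes the members' interval included the background. The distance from the peak to the first TSS ranged from 3825 bp for Chd2 to 80136 bp for Chd9. In several of them the first annotated start was poor in CpG while another start of the gene was not. For Brd3 the ratio was 0.118 at the first TSS and 1.10 at the most CpG-rich one, for Kdm4c 0.165 and 0.917, and for Chd9 0.324 and 0.917.

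A promoter peak was shared with another protein-coding gene, that is it lay within 1000 bp of a TSS of both, for 5 members. The pairs were Arid4b with Ggps1, Brd2 with H2-DMa, Ino80e with Hirip3, Kat14 with Pet117, and Smarcc1 with Dhx30. For Smarcc1 the shared peak (777 bp, chr9:110116790-110117566) ended 142 bp upstream of its first TSS, and a separate peak of 349 bp at chr9:110132011-110132359 covered a later TSS, 14303 bp from the first. In 12 members the peak also lay within 1000 bp of the TSS of a noncoding gene. No share over all genes stands beside the counts of peaks shared with a coding or a noncoding gene. They are therefore not set against a background. In all, 12 members, counted whether or not they had a peak, had a coding TSS on the opposite strand within 1000 bp. Of these 12, 4 (33.3%, interval 13.8% to 60.9%) had a promoter peak. The interval included the 49.3% of all genes with such a neighbour. Among the 70 members without such a neighbour the share was 48.6% (interval 37.2% to 60.0%), against 18.6% of all genes without one. Of the 7 sirtuins, 4 had such a neighbour: Dnajc12 beside Sirt1, Nfkbib beside Sirt2, Psmd13 beside Sirt3 and Ankrd24 beside Sirt6. Over all protein-coding autosomal genes, 2638 of 20807 had one.

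Inside or partly inside the genes, more than 1000 bp from every own TSS, 16 peaks lay in 12 members (14.6%, interval 8.57% to 23.9%), against 5.68% of all protein-coding autosomal genes. The members were also longer, with a median gene length of 39925.5 bp against 17629 bp. Among genes from 50000 to 100000 bp long, 4 of 16 members (25.0%) had such a peak, against 10.1% of all genes, and among genes of 100000 bp or more, 4 of 18 (22.2%), against 23.0%. In shorter genes the counts were 2 of 26 members from 20000 to 50000 bp (7.69%, against 4.72%) and 2 of 22 below that (9.09%, against 1.45%). Kdm6b had 3, Hdac4 and Smarcd3 had 2 each, and Arid1a, Arid3a, Brd3, Chd2, Hdac10, Kat6b, Kdm3b, Kdm4b and Smarcc1 had 1 each. Of the 16, 7 lay in members without a promoter peak. The widest was the 883-bp interval in an intron of Hdac4 at chr1:92100171-92101053, 12278 bp from the nearest TSS of that gene, with a 551-bp peak at chr1:92099280-92099830 beside it. The 2 peaks of Smarcd3, at chr5:24604784-24605209 and chr5:24611677-24612090, were both intronic. Single intronic peaks lay in Arid1a (chr4:133729412-133730162), Arid3a (chr10:79934073-79934618), Brd3 (chr2:27469678-27470057), Chd2 (chr7:73489570-73489809), Kat6b (chr14:21584690-21584947) and Kdm4b (chr17:56360396-56360956). That of Hdac10 (chr15:89123187-89123419) lay across the end of the gene, with 120 of its 233 bp outside it, and within 1000 bp of a TSS of Tubgcp6. The peaks of Smarcc1 (chr9:110205964-110206261) and Kdm3b overlapped coding exon.

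Among all genes, the share with a promoter peak was higher at higher CpG content and at more annotated starts, and the members were high in both. Their first TSSs had a median CpG ratio of 0.783, against 0.601 for all genes, and they had a median of 7 annotated TSSs, against 3. At the most CpG-rich TSS, 80 of 82 members had a ratio of at least 0.6, and 38 of these 80 (47.5%, interval 36.9% to 58.3%) had a promoter peak. Of all genes with such a TSS the share was 36.6%, just below that interval. Beside genes with such a TSS, a class chosen after the data were seen, the members stood closer to the background than beside all genes. With the first annotated TSS used in its place, 28 of 63 members at 0.6 or more had a promoter peak (44.4%, against 38.4% of all genes), and under 0.6 the distance was wide, with 10 of 19 members (52.6%) against 6.51%. Of the 10 members under 0.4 at the first TSS, 7 had a promoter peak (70.0%, against 4.59%), and in Brd3, Chd2, Chd9, Hdac4, Kat6b and Kdm4c among these the peak lay at a later TSS.

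By class of ratio at the most CpG-rich TSS, 6 of 22 members between 0.6 and 0.8 had a promoter peak (27.3%, against 25.1% of all genes), 24 of 39 between 0.8 and 1.0 (61.5%, against 40.4%) and 8 of 19 at 1.0 or more (42.1%, against 48.3%). Both members under 0.6, Arid5b and Kdm6b, had none. By number of TSSs, 8 of 23 members with 2 to 4 had a promoter peak (34.8%, against 17.9%), 14 of 33 with 5 to 9 (42.4%, against 33.6%) and 16 of 26 with 10 or more (61.5%, against 42.3%). With both properties held, the shares for 5 to 9 TSSs were 42.4% of members and 39.8% of all genes, and for 10 or more 61.5% and 45.6%. The intervals of the members' shares included the background in both classes. Members with 2 to 4 TSSs were not examined with both properties held.

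**Figure D4:**
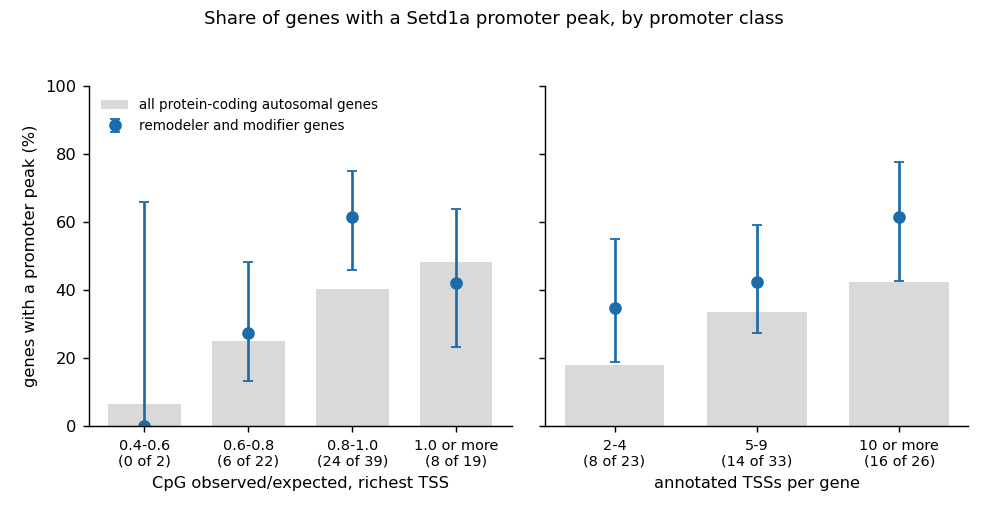
Share of genes with a Setd1a promoter peak, in percent, by CpG observed to expected ratio at the most CpG-rich TSS (left) and by number of annotated TSSs (right). Grey bars are all protein-coding autosomal genes, points are the members with 95% Wilson intervals over genes, and the counts of members with a peak stand under each class. Members lie highest above the bars between 0.8 and 1.0, with 61.5% against 40.4%, and near or below them at 0.6 to 0.8 and at 1.0 or more.

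CpG content separated members with and without a peak less than it separated genes in general. At the most CpG-rich TSS the median ratio was 0.922 in members with a promoter peak and 0.879 in members without, against 0.893 and 0.574 among all genes. At the first TSS the members' medians were 0.795 and 0.764. The start regions of Kdm7a (1.19), Smarcad1 (1.13) and Brd1 (1.08) were among the most CpG-rich of the members and had no peak.

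In the central 300 bp of the 42 promoter peaks, the SP and KLF letters occurred in 29 (69.0%, against 65.2% of the promoter peaks of all genes), those of NFY in 16 (38.1%, against 32.0%), those of ETS in 5 (11.9%, against 14.7%) and those of NRF1 in 3 (7.14%, against 5.01%). The TATA letters occurred in 2 (4.76%, against 3.61%), and those of the E-box (against 8.78%), of YY1 (against 3.47%) and of the cyclic AMP response element (against 2.86%) in 1 each (2.38%). At these counts a difference of a few peaks changes each share by several percentage points. Promoters, taken as 250 bp before to 50 bp after the first TSS, were searched apart from the peak centres. Over all protein-coding autosomal genes, the shares for SP and KLF, NFY, ETS and NRF1 were 43.7%, 38.6%, 11.0% and 3.45%. That for TATA was 12.7%. In the order from SP and KLF to NRF1, promoters of members with a peak had 60.5%, 36.8%, 23.7% and 10.5%. Those of members without had 63.6%, 27.3%, 15.9% and 2.27%, and those of all genes with a peak 66.2%, 42.5%, 18.1% and 6.88%. The stretch of the Smarca4 peak held 2 matches to the NRF1 letters and that of Kat6b 5 to the NFY letters. The TATA letters occurred in 0 of the 38 first promoters of members with a peak, against 5.55% of those of all genes with a peak, and in 3 of the 44 of members without (6.82%). Here too, a few genes would change the members' shares by several percentage points.

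Genes for partner proteins of the same complexes, which the rule does not take, had a promoter peak in 53 of 89 cases (59.6%, interval 49.2% to 69.1%), against 22.5% of all genes. The list of partners was chosen with earlier results of these data known, so that its share is a description only. The share of the partners was not set beside genes of like CpG content or like number of TSSs. For NuRD, where Hdac2 and Chd3 were the members with a peak, 7 of 9 partners had one: Cdk2ap1, Gatad2a, Gatad2b, Mbd2, Mbd3, Mta2 and Rbbp4, and not Mta1 or Mta3. For SRCAP and TIP60, which deposit the histone variant H2A.Z and of which the latter holds Kat5, 10 of 13 had one, among them the motors Srcap and Ep400 and the scaffold Trrap. For BAF and PBAF the count was 9 of 16, including Pbrm1 and Actl6a but not the neuronal paralog Actl6b. For INO80 it was 5 of 9, for the partners of ISWI 4 of 9, and for Sin3, NCoR and CoREST 7 of 15, where Sin3a and Sin3b had a peak and Rcor1 did not. Among partners of the acetyltransferases together with CBP and p300, 11 of 18 had one, including both Crebbp and Ep300.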

How the data were processed

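Setd1a CUT & RUN libraries (2 replicates) and 1 IgG library were made from cultured quiescent NSCs. Per the methods and the submitters' processing notes, the authors demultiplexed reads with bcl2fastq 2.17.1.14, trimmed them with Trimmomatic 0.32, mapped them uniquely to mm10 with Bowtie2 2.1.0, filtered them with SAMtools 0.1.18 and called peaks with MACS2 2.2.8. What was deposited is 1 list with a chromosome, a start and an end in bp per peak, and it has no score column. Per the methods, MACS2 ran with its defaults and the list is the intersection of both replicates. The overlap that counted, and whether IgG served as control, is not given in the sources used here. Starts were read as 1-based.

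Peaks were assigned with Python 3.11.15, numpy 2.4.6, pandas 2.3.3 and scipy 1.17.1 to GENCODE M21 TSSs within 1000 bp, measured from the nearer peak edge and 0 where a peak covered the TSS. Where genes have several promoter peaks, the one nearest a TSS sets the distance. CpG ratios were taken over 500 bp around a TSS. Shares carry 95% Wilson intervals. Members and lists were chosen with earlier results of these data known, and no test over samples or gene sets was run. All members were counted by role, some items are not reported here, and coordinates were given for the widest and narrowest peaks of each role, peaks off the TSS, members with 2 promoter peaks or a shared one, and, apart from Kdm3b, peaks inside genes. Sequences were cut to at most 30 bases of annotated exon. On simulated intervals placed at known distances, 400 of 400 were recovered. Alternatives covered the window, the TSS set, peak width and peak assignment.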

Additional observations from a re-analysis of the deposited data

How the results depend on the processing

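The count of members with a promoter peak lay between 30 and 41 under all alternatives; 38 were reported. The ratio of the members' share to that of all genes, 2.06 as reported, ranged from 1.78 (most upstream TSS only) to 2.39 (each peak given to the nearest TSS only) over the alternatives with GENCODE TSSs. The share of all genes with a promoter peak was 21.8% at 500 bp, 24.1% at 3000 bp, 21.9% with TSSs of protein-coding transcripts, 21.7% with basic transcripts, 20.6% with the most upstream TSS, 19.9% with peaks at least 300 bp wide and 18.3% with the nearest TSS only. With the most upstream TSS only, 19 members had a peak over a TSS instead of 30, since peaks at later starts are then not counted. A window of 500 bp lost Arid2, Arid3a and Smarca5, and one of 3000 bp gained Hdac10, Kdm6b and Smarcd3. Taking only peaks at least 300 bp wide lost Arid2, Chd7, Hdac5 and Kat5, and basic transcripts lost Arid3a, Chd2, Chd3 and Chd9. Giving each peak to the nearest TSS only lost Brpf1 and Ino80e. The median CpG ratio of members with a peak was 0.922 at the most CpG-rich TSS (chosen after the data were seen) and 0.795 at the first. No paired analysis was possible because both replicates went into 1 list, so that none could be left out. Depth per library is unknown and limits what the absence of a peak can show.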
